A study of Mus musculus with 6 samples.

Results

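Bmp4 and 9 genes known to respond to BMP signalling (Id1, Id2, Id3, Id4, Msx1, Msx2, Smad6, Smad7 and Bambi) were examined in mouse embryos at embryonic day 8.5. The members were chosen by gene symbol, and all 10 were among the 18193 genes measured. Embryos of the genotype Fz2-/-; Fz7-/- lacked both Frizzled receptors and are called the double knockout, and Fz2+/+; Fz7-/- embryos, lacking Fz7 alone, are called the single knockout. Each genotype had 3 Affymetrix arrays of whole embryo RNA. Embryos of both genotypes had a mixed C57BL6/129 background and mixed gender. The loss of Fz7 was common to both groups, and wild-type embryos were not analysed here. The comparison therefore bears only on loss of Fz2 added to that of Fz7. The arrays also differed in tissue markers, as described below, and the part of this in the BMP gene values was not tested. The labels do not say whether an array held 1 embryo or a pool, so a p-value here reflects variation among these arrays, some of which may be technical.

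BMP4 is a secreted ligand of the TGF-beta superfamily. It binds type I and type II receptor kinases, which phosphorylate SMAD1, SMAD5 and SMAD9, and these enter the nucleus with SMAD4 and switch on target genes. In the early mouse embryo Bmp4 is made in the extraembryonic ectoderm and later in the allantois, amnion, posterior mesoderm and surface ectoderm, and it is known for its part in mesoderm formation, germ cell specification and dorsal patterning. The Id genes encode helix-loop-helix proteins without a DNA-binding region, and are among the most direct targets of the pathway. Frizzled proteins such as Fz2 and Fz7 (gene symbols Fzd2 and Fzd7) are receptors of a different ligand family, the Wnts.

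SMAD complexes bind the GC-rich element GGCGCC and the element GTCT. RefSeq sequences (build GRCm38.p6) of the 250 bases before the transcription start were at hand for 7 of the 10 members. GGCGCC, which reads the same on both strands, occurred in 2 of these 7, Id2 and Id4, and in 9.59% of 32851 promoter windows of that length. GTCT, searched on both strands, occurred in 5 of the 7 and in 82.9% of all windows. A match of GTCT on either strand cannot overlap one of GGCGCC, because their end letters do not match up. The windows of Id2 and Id4 are shown because they hold GGCGCC, and that of Msx2 because it was the single member whose groups did not overlap in expression on the brightest probe set of each gene. Capitals mark GGCGCC and GTCT (AGAC where it lies on the opposite strand).
Id2, chr12:25096093-25096342, minus strand: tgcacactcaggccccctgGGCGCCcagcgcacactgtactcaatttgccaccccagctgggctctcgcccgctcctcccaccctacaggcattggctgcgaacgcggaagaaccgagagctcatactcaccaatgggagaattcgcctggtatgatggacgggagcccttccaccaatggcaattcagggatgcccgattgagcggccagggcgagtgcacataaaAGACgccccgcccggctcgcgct
Id4, chr13:48260866-48261115, plus strand: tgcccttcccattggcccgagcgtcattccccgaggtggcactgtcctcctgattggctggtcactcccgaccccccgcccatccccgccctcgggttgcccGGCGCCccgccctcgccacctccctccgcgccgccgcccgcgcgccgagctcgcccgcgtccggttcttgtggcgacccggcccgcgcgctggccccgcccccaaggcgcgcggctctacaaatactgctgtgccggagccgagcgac
Msx2, chr13:53472781-53473030, minus strand: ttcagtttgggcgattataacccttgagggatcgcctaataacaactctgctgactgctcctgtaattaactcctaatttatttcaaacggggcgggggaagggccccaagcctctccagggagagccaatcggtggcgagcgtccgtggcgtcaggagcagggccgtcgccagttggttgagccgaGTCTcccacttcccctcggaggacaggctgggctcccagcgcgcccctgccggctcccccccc
The GGCGCC of Id2 began 231 bases before the start and that of Id4 148 bases before it. The GTCT of Msx2 began 63 bases before the start, and its window held no GGCGCC. A match describes letters in this window, not a bound site.

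Fzd2 checked the labels. It had RMA signals of 7.30, 7.69 and 7.63 in the double knockout, against 9.86, 9.99 and 10.01 in the single knockout (log2 scale; RMA is a background-corrected summary of the probes of each probe set). The difference for Fzd2 was -2.42 (SE 0.11, limma adjusted p = 0.00567), and it was the only gene of 18193 past an adjusted p of 0.05, a call lost without any 1 of double knockout replicate 3 and single knockout replicates 1 to 3 (adjusted p = 0.0759 to 0.120). Double knockout replicate 1 was unlike the remaining arrays. Its correlation with each of them across genes was 0.986 to 0.990, against 0.997 to 0.998 among the others, and in it 494 genes differed from the single knockout mean by over 1 log2 unit, against 12 and 43 in double knockout replicates 2 and 3. Differences without this array are therefore given beside those with all 6. Heart markers gave a partial check of the labelled tissue. Heart genes averaged 8.35 to 10.81 in double knockout arrays and 10.57 to 10.95 in single knockout arrays, where the median gene averaged 7.10. The low end was double knockout replicate 1, at -2.42 from the single knockout mean. The check therefore does not show that this array held the same mix of tissues as the others.

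None of the 10 BMP genes changed past the test. By limma with Benjamini-Hochberg adjustment over all genes, 0 of 10 were called and 0 had an unadjusted p under 0.05, against 0.0055% and 4.96% of all genes. All 10 members had signals above that of the median gene. Differences ran from -0.095 for Id3 to 0.24 for Msx2, with 8 of 10 above 0 and a median of 0.12. The median over all genes was -0.0093, and 46.2% of genes lay above 0. The members were read on the same 6 arrays, so their signs are not independent. Averaged over members, the lowest double knockout array (replicate 2) and the highest single knockout array (replicate 1) each lay 0.028 above the single knockout mean. The exact two-sided permutation test of 3 against 3 arrays cannot give a p below 0.1, and among the members it gave 0.1 for Msx2 and 0.2 or more for the rest. The 95% interval of the difference lay within 1.5-fold either way for 10 of 10 members, as it did for 90.8% of all genes. Without double knockout replicate 1 it again did so for 10 of 10, against 96% of genes, 0 of 10 had an unadjusted p under 0.05, against 6.67% of genes, and 9 of 10 differences were above 0 with a median of 0.089.

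**Figure D1:**
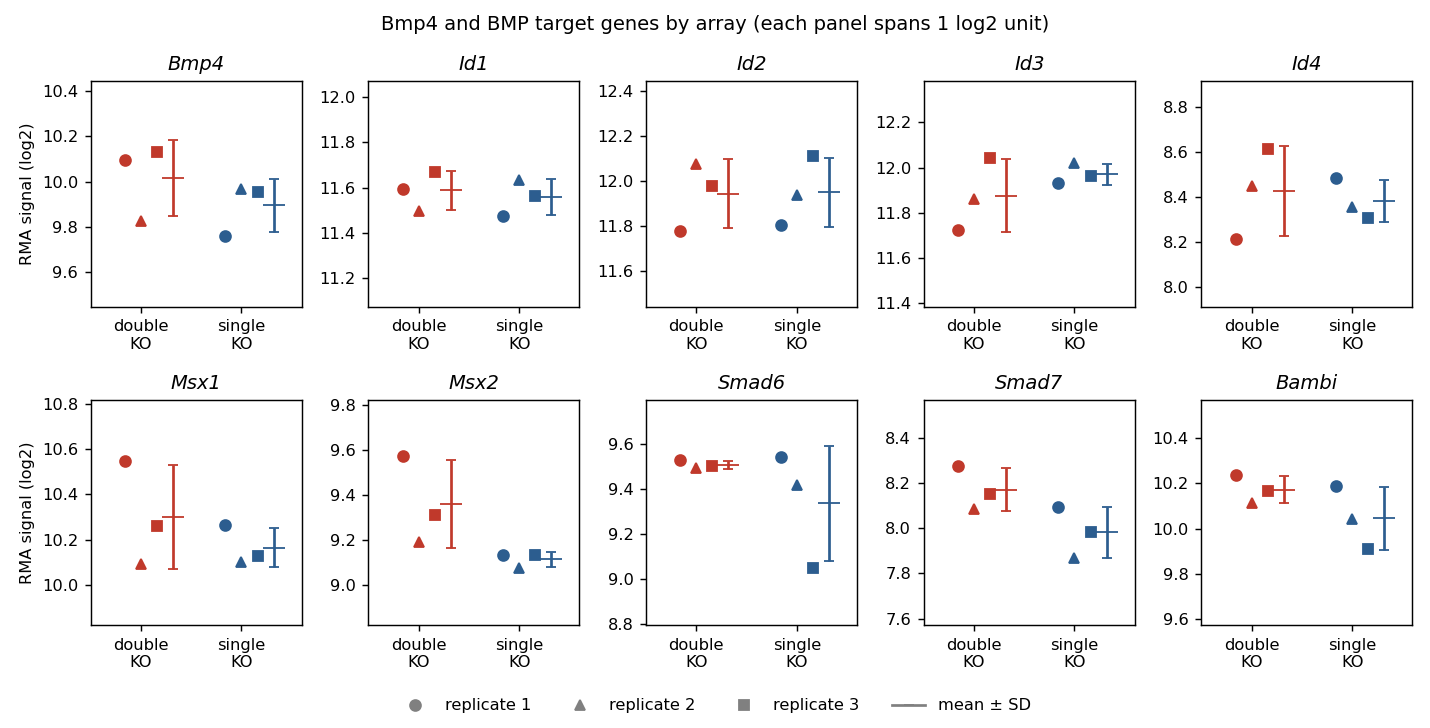
RMA signal (log2) of the brightest probe set of each member in the 3 double knockout arrays (red) and the 3 single knockout arrays (blue), with the mean ± SD of 3 arrays beside the points; each panel spans 1 log2 unit. Of these brightest probe sets, only that of Msx2 has groups that do not overlap, and the whole range of a member over the 6 arrays is between 0.19 (Id1) and 0.50 (Msx2).

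Bmp4, the ligand, had signals of 10.09, 9.82 and 10.13 in double knockout replicates 1 to 3, against 9.76, 9.97 and 9.95 in the single knockout replicates. Its groups overlapped: double knockout replicate 2 lay below 2 of the 3 single knockout arrays. The means were 10.02 ± 0.17 in the double knockout and 9.89 ± 0.12 in the single knockout (SD, n = 3 each). The difference was 0.12 (SE 0.10, limma adjusted p = 0.877), which is 1.09-fold with an interval from 0.914 to 1.30. Without double knockout replicate 1 it was 0.084 (SE 0.11), with an interval from 0.875-fold to 1.28-fold. It was 0.22 without double knockout replicate 2, 0.064 without double knockout replicate 3 and 0.055 without single knockout replicate 1. In these bulk samples, a change in the number of cells that make a transcript and a change in its amount per cell cannot be told apart.

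The 3 genes nearest to Bmp4 in profile over the 6 arrays were picked for that nearness, so their likeness follows from the choice. After each gene was centred on its mean, Nat2 had a root mean square difference from Bmp4 of 0.044 log2 units. Dync1li1 had 0.046 and Akap12 0.048, where the median over all genes was 0.16. That median does not tell how near the closest of many genes would lie by chance. Among the members Id1 lay nearest, at 0.077, and Smad6 farthest, at 0.22.

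The 4 Id genes encode inhibitors of basic helix-loop-helix transcription factors. Id1 had signals of 11.60, 11.50 and 11.67 in the double knockout, against 11.48, 11.63 and 11.56 in the single knockout. These 6 values interleave, and the difference was 0.029 (SE 0.072, limma adjusted p = 0.952), an interval from 0.905-fold to 1.15-fold. It was 0.025 without double knockout replicate 1, and -0.012 without either double knockout replicate 3 or single knockout replicate 1.

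Id2, read by 3 probe sets, had signals of 11.78, 12.08 and 11.98 in the double knockout, against 11.80, 11.94 and 12.11 in the single knockout on the brightest of them. Replicate 1 was the lowest array in each genotype. The difference was -0.0059 (SE 0.11, limma adjusted p = 0.992), and 0.077 without double knockout replicate 1. The next probe set of Id2 differed by -0.030. The dimmest read 7.53, 7.66 and 6.68 in the double knockout, against 7.67, 7.93 and 7.78 in the single knockout, without overlap. On it double knockout replicate 2 lay just under single knockout replicate 1. The low value of this dimmest probe set in double knockout replicate 3 was not seen on the other Id2 probe sets, where that array lay at 11.98 and 11.69. The difference on the dimmest probe set, -0.51 (SE 0.25), did not pass when all probe sets were tested (limma adjusted p = 0.920). It was -0.62 without double knockout replicate 1.

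Id3 had signals of 11.72, 11.86 and 12.04 in the double knockout, against 11.93, 12.02 and 11.96 in the single knockout. Double knockout replicates 1 and 2 lay below all single knockout arrays, and replicate 3 above them. The difference was -0.095 (SE 0.090, limma adjusted p = 0.880), or 0.936-fold with an interval from 0.806 to 1.09. Without double knockout replicate 1 it was -0.019, the only member below 0 in that setting, and without double knockout replicate 3 it was -0.18.

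Id4, known for its part in neural progenitors, had signals of 8.22, 8.45 and 8.61 in the double knockout, against 8.49, 8.36 and 8.31 in the single knockout. The double knockout held both the lowest and the highest array. The difference was 0.043 (SE 0.11, limma adjusted p = 0.953), and without double knockout replicate 1 it was 0.15 (SE 0.084, adjusted p = 0.811). It was -0.051 without double knockout replicate 3, 0.094 without single knockout replicate 1 and 0.0047 without single knockout replicate 3. The remaining probe sets of Id4 differed by 0.011 and 0.14. The dimmest read 6.79, 6.81 and 6.73 in the double knockout, against 6.67, 6.59 and 6.64 in the single knockout, without overlap, at an adjusted p of 0.920 by limma over all probe sets. Id2 and Id4, which carry GGCGCC in the windows above, thus had intervals from 0.830-fold to 1.20-fold and from 0.856-fold to 1.24-fold.

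Msx1 and Msx2 encode homeobox proteins of the dorsal neural tube, neural crest, limb and other sites of BMP signalling. Msx2 had signals of 9.57, 9.19 and 9.31 in the double knockout, against 9.14, 9.07 and 9.13 in the single knockout. All 3 double knockout arrays lay above all 3 single knockout arrays, as they did for 4.85% of all genes, and groups did not overlap in either direction for 11.4% of genes. Among 10 members this was 1, each read from its brightest probe set. The difference was 0.24 (SE 0.10, limma adjusted p = 0.872), or 1.18-fold with an interval from 0.999 to 1.40. Without double knockout replicate 1 it was 0.14 (SE 0.065, adjusted p = 0.784). The dim probe set of Msx2 differed by 0.11, with signals of 4.10, 4.04 and 3.91 in the double knockout, against 3.85, 3.91 and 3.95 in the single knockout, and these groups overlapped.

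Msx1 had signals of 10.55, 10.09 and 10.26 in the double knockout, against 10.26, 10.10 and 10.13 in the single knockout. Only double knockout replicate 1 lay above the single knockout range. The difference was 0.14 (SE 0.12, limma adjusted p = 0.879) with all arrays and 0.012 (SE 0.083, adjusted p = 0.993) without that array, and 0.24 without double knockout replicate 2. The other probe set of Msx1 differed by 0.076, and by -0.028 without that array.

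Markers of the dorsal neural tube and neural crest moved with double knockout replicate 1 in the other direction from Msx1 and Msx2. In this array 9 of the 12 markers lay below the single knockout mean and the list averaged -0.99 log2 units from it, while Msx1 and Msx2 lay 0.39 and 0.46 above it. Per array the list averaged 6.77 to 7.74 in the double knockout and 7.68 to 7.84 in the single knockout. The part of these tissue differences in the Msx values was not tested.

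Smad6, Smad7 and Bambi encode inhibitors that BMP signalling itself induces: the first pair are inhibitory SMADs and Bambi is a pseudoreceptor without a kinase domain. Smad7 had signals of 8.28, 8.09 and 8.15 in the double knockout, against 8.09, 7.87 and 7.98 in the single knockout. The groups touched, with double knockout replicate 2 just under single knockout replicate 1. The difference was 0.19 (SE 0.083, limma adjusted p = 0.872), or 1.14-fold with an interval from 0.993 to 1.31, and 0.14 without double knockout replicate 1. The other Smad7 probe set read 7.50, 7.31 and 7.23 in the double knockout, against 7.19, 7.13 and 7.04 in the single knockout, without overlap. It differed by 0.23 (SE 0.089), with an adjusted p of 0.920 by limma over all probe sets.

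Smad6 had signals of 9.53, 9.49 and 9.50 in the double knockout, against 9.54, 9.42 and 9.05 in the single knockout. The double knockout arrays were nearly level, and single knockout replicate 3 alone was low. The difference of 0.17 (SE 0.13, limma adjusted p = 0.872) was 0.027 without single knockout replicate 3, 0.27 without single knockout replicate 1 and 0.16 without double knockout replicate 1. Smad6 had the widest interval upward without double knockout replicate 1, to 1.42-fold.

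Bambi had signals of 10.24, 10.11 and 10.17 in the double knockout, against 10.19, 10.04 and 9.91 in the single knockout. The groups overlapped through single knockout replicate 1. The difference was 0.13 (SE 0.084, limma adjusted p = 0.872), or 1.09-fold with an interval from 0.948 to 1.26, and 0.095 without double knockout replicate 1. It was 0.058 without single knockout replicate 3 and 0.20 without single knockout replicate 1. Like Smad6, Bambi was lowest in single knockout replicate 3. The average of the allantois and extraembryonic mesoderm markers was also lowest there, at -0.44 from the single knockout mean over 11 genes. List averages ran from 8.36 to 8.86 in double knockout arrays and 8.13 to 8.84 in single knockout arrays. By gene, Tbx4, Pitx1, Spin2c and Plac1 were lowest in that array, and the rest of the list was not. Tbx4 read 6.91 there, against 10.12 and 9.58 in the other single knockout arrays, and Plac1 7.85, against 10.26 and 9.90. Postn was highest there, at 9.13. The part of these markers in the Smad6 and Bambi values was not tested.

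**Figure D2:**
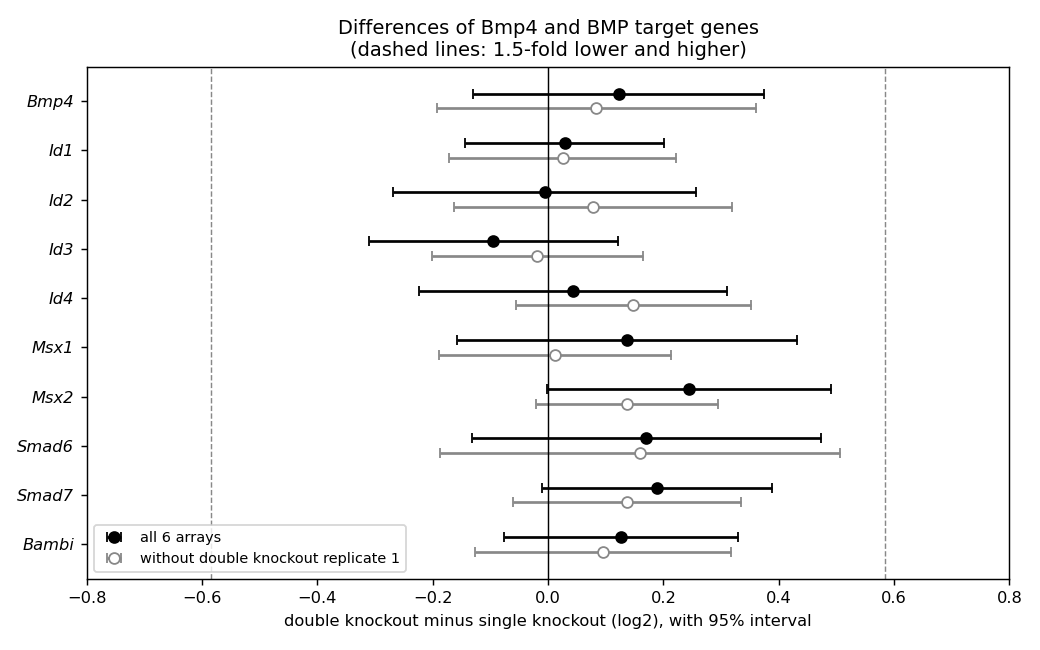
Difference of each member (double knockout minus single knockout, log2) with its 95% interval from limma, with all 6 arrays (filled) and without double knockout replicate 1 (open). All intervals include 0 and lie inside the dashed lines at 1.5-fold lower and higher.

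Double knockout replicate 1 differed widely in tissue markers, and the BMP genes were set against the single knockout in it. In this array 0 of 10 members lay more than 0.5 log2 units from the single knockout mean, against 8.46% of all genes, and a count of 0 among 10 genes is near that share. The median absolute deviation of the members there was 0.20, against 0.12 for all genes. The members ranged from -0.25 (Id3) to 0.46 (Msx2) there, from -0.11 to 0.16 in double knockout replicate 2 and from 0.028 to 0.24 in replicate 3. Primitive erythroid markers averaged -3.82 in replicate 1 (7 genes, 6 of them below 0) and -2.04 in replicate 3, heart markers -2.42 (8 of 8 below) and somite markers -1.09 (7 of 8 below) in replicate 1. Visceral endoderm markers averaged 2.56 there (11 of 11 above), trophoblast and placenta markers 1.32 (6 of 8 above) and epiblast markers 0.87 (6 of 10 above). Among the trophoblast and placenta markers, Prl7a1, Prl5a1 and Cts7 lay 3.56, 3.46 and 3.68 above the single knockout mean. The rest of that list ran from -0.57 (Elf5) to 0.34 (Hand1). Among the epiblast markers, Pou5f1, Nanog and Dnmt3b lay 4.86, 3.28 and 1.05 above the single knockout mean in replicate 1. The remaining epiblast markers ran from -0.79 (Tdgf1) to 0.45 (Fgf5). List levels per array ran from 8.43 to 11.10 in the double knockout and 8.39 to 8.81 in the single knockout for visceral endoderm. For trophoblast and placenta they ran from 5.31 to 6.67 in the double knockout and 5.27 to 5.40 in the single knockout. For primitive erythroid genes they ran from 5.45 to 9.43 in the double knockout and 9.02 to 9.49 in the single knockout, and for somite genes from 6.94 to 7.72 in the double knockout and 7.76 to 8.23 in the single knockout. The epiblast list ran from 7.12 to 7.67 in the double knockout and 6.72 to 6.87 in the single knockout. Some lists also differed in double knockout replicates 2 and 3. Epiblast markers averaged 0.31 and 0.62 there (10 of 10 above in each), and somite markers -0.31 and -0.34 (0 of 8 and 1 of 8 above). Heart markers averaged 0.050 and -0.22 there, and visceral endoderm markers -0.072 and -0.11. Within the epiblast list, Lefty2 and Pou5f1 lay 2.43 and 1.40 above the single knockout mean in replicate 3. The remaining epiblast markers ran from 0.18 (Fgf5) to 0.62 (Tdgf1) in that array. The values without replicate 1, which stand beside each member above, therefore still hold tissue differences. The part of any of these differences in the BMP gene values was not tested.

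**Figure D3:**
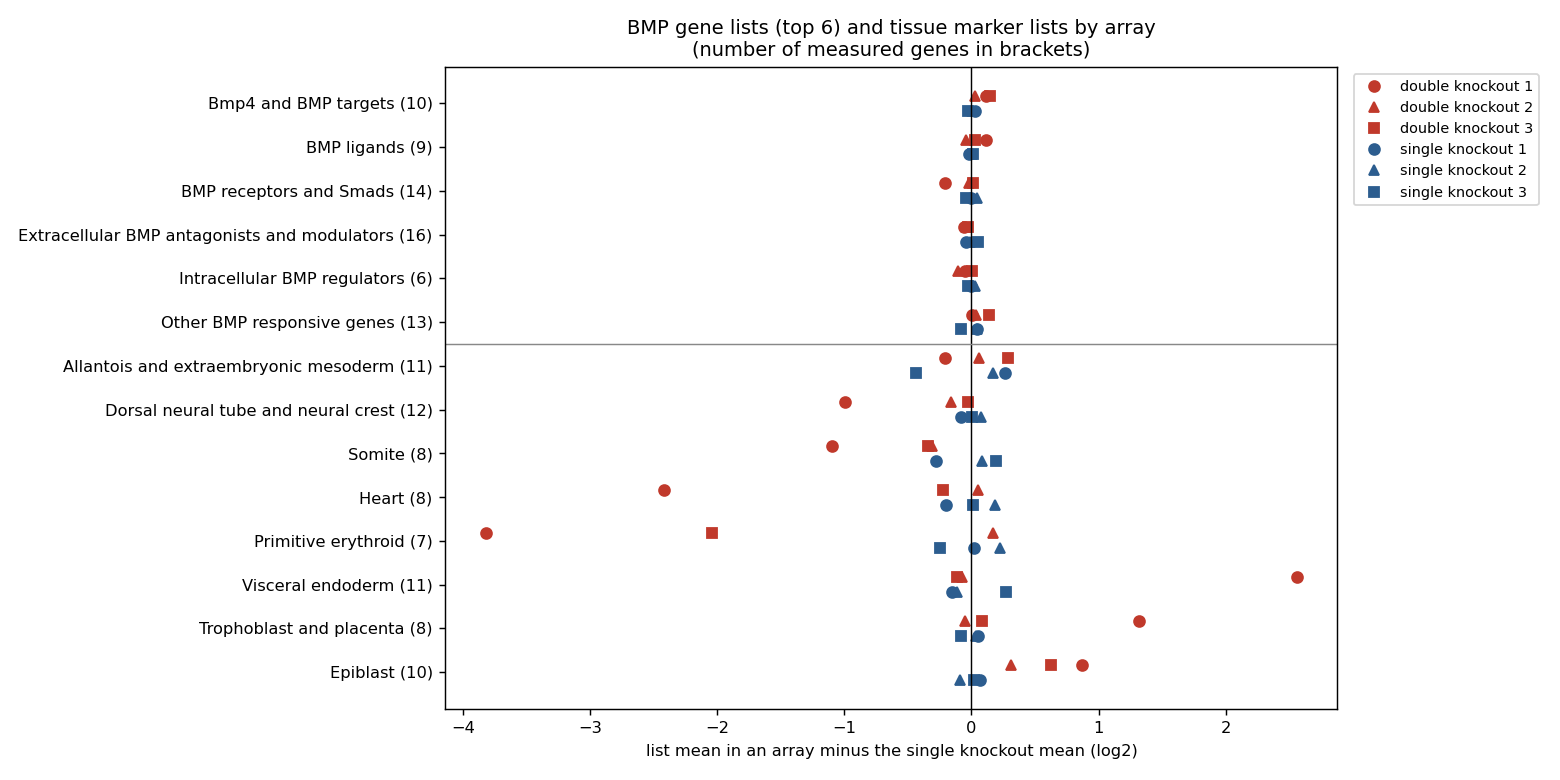
Mean of each gene list in each array minus its single knockout mean (log2), for the 6 BMP lists above the line and 8 tissue marker lists below it, double knockout in red and single knockout in blue. The means of the BMP lists lie between -0.21 and 0.14, and the means of the marker lists in double knockout replicate 1 from -3.82 to 2.56; a list mean averages genes that go both ways, and the 58 pathway genes other than the members run from -1.83 to 0.94 in that array.

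Of the other genes of the pathway, 62 were listed by role and 58 were measured, and 0 were called in either direction. At an unadjusted p under 0.05 there were 3 higher and 3 lower (10.3% of 58, against 4.96% of all genes). The groups did not overlap for 8 of 58, or 13.8%, against 11.4% of all genes. The median difference was -0.0019. Without double knockout replicate 1 there were again 0 calls, 8 of 58 genes (13.8%, against 6.67% of all genes) had an unadjusted p under 0.05, and the median was 0.012. In that array itself 15.5% of the 58 genes lay more than 0.5 log2 units from the single knockout mean, and 25% of the 16 extracellular modulators, against 8.46% of all genes.

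The ligands lay 4 above 0 and 5 below, with a median of -0.0055. They lay 5 above and 4 below without double knockout replicate 1, with a median of 0.011. Bmp2, which signals through the same receptors as Bmp4, had signals of 9.19, 8.90 and 9.02 in the double knockout, against 9.02, 8.69 and 8.82 in the single knockout. The groups overlapped and the difference was 0.19 (SE 0.11), or 0.12 without double knockout replicate 1. Bmp10, a ligand of the heart, differed by -0.11 (SE 0.067), or -0.087 without that array. Both had a limma adjusted p of 0.872.

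Receptors and SMADs lay 6 above 0 and 8 below, with a median of -0.054. The balance turned without double knockout replicate 1, to 8 above and 6 below with a median of 0.0087. Bmpr1b, a type I receptor, had signals of 5.41, 5.94 and 5.97 in the double knockout, against 5.93, 6.33 and 6.18 in the single knockout, all below the median gene. Its groups overlapped through single knockout replicate 1, and the difference of -0.37 (SE 0.18, limma adjusted p = 0.872) was -0.19 without double knockout replicate 1. Smad9, a receptor-regulated SMAD, differed by -0.15 (SE 0.077, adjusted p = 0.872), and by the same amount without that array. Picked after their values were seen, Smad1 and Smad4, the central transducers, differed by 0.0054 (SE 0.052) and 0.040 (SE 0.056), or 0.0033 and 0.039 without that array.

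The extracellular antagonists and modulators held the widest differences, from -1.36 to 0.55, with 8 above 0 and 8 below, and again 8 and 8 without double knockout replicate 1. Sostdc1, a secreted antagonist of BMP and Wnt signalling, had signals of 4.66, 5.52 and 5.21 in the double knockout, against 6.14, 6.66 and 6.66 in the single knockout. Every double knockout array lay below every single knockout array. The difference of -1.36 (SE 0.24), a level 0.390 times that of the single knockout, was -1.12 without double knockout replicate 1, and the limma adjusted p was 0.872. All of these signals lay below the median gene, a range in which RMA compresses differences.

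Chrdl1, a chordin-like antagonist, had signals of 7.02, 6.85 and 6.88 in the double knockout, against 6.68, 6.68 and 6.76 in the single knockout. Its groups did not overlap, and the difference was 0.21 (SE 0.066, limma adjusted p = 0.872), or 0.16 without double knockout replicate 1. Named after their values were seen, Bmper, an extracellular BMP modulator, and Nog, which encodes the antagonist noggin, differed by 0.55 (SE 0.17) and 0.27 (SE 0.10), or 0.35 and 0.37 without that array. Bmper read 7.90, 7.29 and 7.31 in the double knockout, against 7.10, 6.85 and 6.91 in the single knockout, without overlap. Nog was dim, between 4.31 and 4.73 in all arrays, and its groups overlapped.

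Intracellular regulators lay 3 above 0 and 3 below, with a median of -0.032, and 2 above and 4 below without double knockout replicate 1, with a median of -0.022. Tob1, which encodes an inhibitor of SMAD-dependent transcription, differed by -0.17 (SE 0.071) and the SMAD co-repressor gene Ski by -0.18 (SE 0.079), both at a limma adjusted p of 0.872. Tob1 differed by -0.22 and Ski by -0.12 without double knockout replicate 1. The double knockout arrays of Tob1 lay at 8.93, 8.82 and 8.77, against 9.10, 8.98 and 8.95 in the single knockout, without overlap.

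Other genes known to respond to BMP in embryos or cells lay 8 above 0 and 5 below, with a median of 0.11. The counts were the same without double knockout replicate 1, and the median was 0.040. Gata3, a transcription factor of surface ectoderm and trophoblast, had signals of 7.22, 7.17 and 7.22 in the double knockout, against 7.30, 7.49 and 7.42 in the single knockout. Its groups did not overlap and the difference was -0.20 (SE 0.066, limma adjusted p = 0.872). Atoh8, a helix-loop-helix gene, differed by -0.13 (SE 0.059, adjusted p = 0.872), also without overlap. Leaving out double knockout replicate 1 gave -0.21 for Gata3 and -0.096 for Atoh8.

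**Figure D4:**
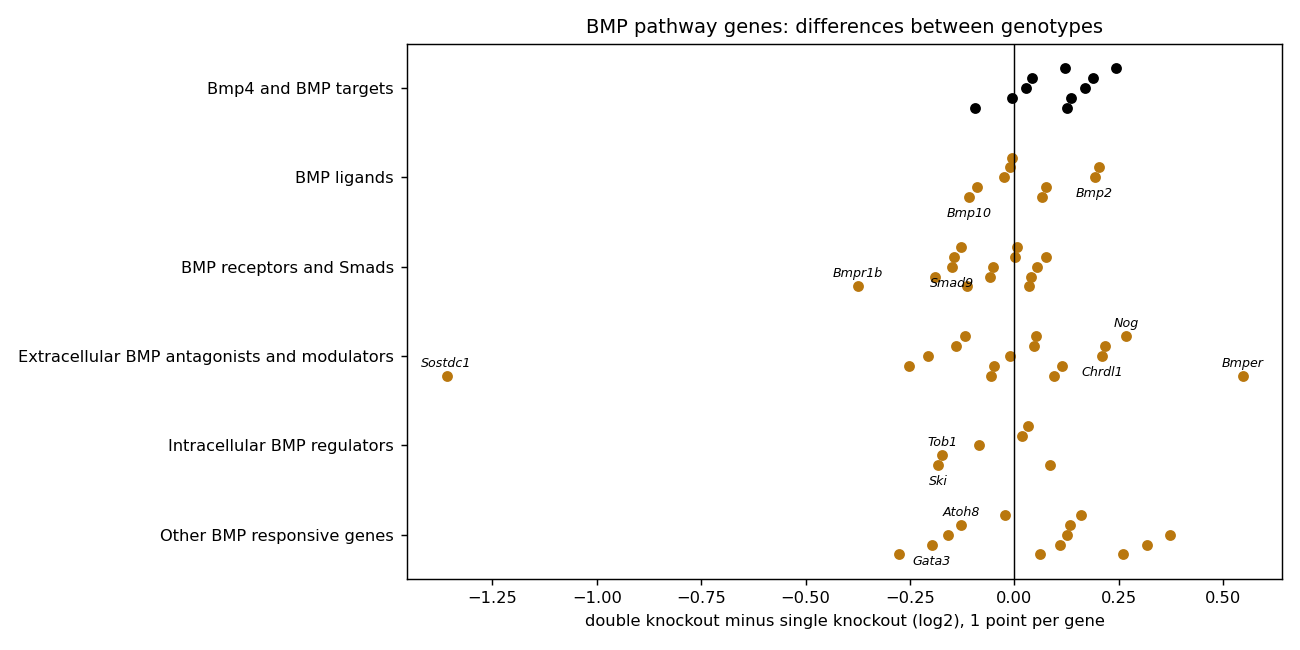
Difference of each measured gene (double knockout minus single knockout, log2, 1 point per gene; vertical offsets within a row only separate points) for the 10 members (black) and 58 other BMP pathway genes by role (brown). The members span -0.095 to 0.24, and the extracellular modulators span -1.36 (Sostdc1) to 0.55 (Bmper).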

How the data were processed

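RNA of whole embryos was labelled with biotin and hybridised to 6 Affymetrix arrays, 3 per genotype, grouped by the sample titles. The authors deposited log2 values of 45101 probe sets. These came from RMA per the submitters' processing notes, with no version given in the sources used here. The log2 scale was read from the values, 2.64 to 15.17, with array medians of 5.79 to 5.82. Depth has no counterpart on arrays, and the number of arrays limits the precision.

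Probe sets were named by the platform annotation. Of them 34945 had 1 symbol, 932 had several, 9160 had none listed and 64 were controls. Each of the 18193 genes was represented by the probe set brightest on average over 6 arrays, and the members had 17 probe sets in all. Genotypes were compared with limma 3.58.1 in R 4.3.3 (lmFit and eBayes, two-sided tests). P-values were adjusted by the Benjamini-Hochberg method over all genes, with a threshold of 0.05 and 95% intervals from the moderated fit. The test was also run on simulated data with independent noise per gene and array. Those data held no array set apart as double knockout replicate 1 is, so they cannot show how the test behaves with such an array.

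The members and lists were chosen with earlier results of these data known. Named genes were Fzd2, Fzd7, the members, the 2 genes of smallest unadjusted p per pathway list (where none passed) and the 3 genes nearest to Bmp4 in profile among those at or above the median signal. Fzd7, deleted in both groups, read 4.89 ± 0.10 in the double knockout and 4.92 ± 0.01 in the single knockout (SD, n = 3 each). Promoter sequences are those of RefSeq, GRCm38.p6. Alternatives were the replicate number as a block, moderation, filters, probe set choice, normalization, array weights, the threshold and leaving out each array.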

Additional observations from a re-analysis of the deposited data

How the results depend on the processing

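No member and no other BMP pathway gene was called under any of the 16 alternatives. Of 150 member differences under 15 alternatives, 144 kept their sign and 6 turned it, all of Id1, Id2 or Id4, whose differences were near 0. With array weights Id2 was 0.030, and leaving out each array in turn gave -0.012 to 0.074 for Id1, -0.079 to 0.077 for Id2 and -0.051 to 0.15 for Id4. The smallest adjusted p of a member under any of them was 0.737. The count of genes called, 1 with all 6 arrays and the settings above (Fzd2), was 2 with all probe sets tested (2 probe sets, both of Fzd2), 0 with the mean of the probe sets of a gene and 0 to 1 when each array was left out. It was 0 without double knockout replicate 3 or any 1 of the 3 single knockout arrays, where Fzd2 still differed by -2.46 to -2.39; the cause was not tested. With the replicate number as a block, 1 gene, 0 members and 0 pathway genes were called, and no call changed. Deviations of same-numbered arrays correlated at 0.094, -0.037 and -0.13. With 3 arrays per genotype these values cannot decide whether same-numbered arrays shared a batch, and the labels name none. The SE of Smad7 was 0.061 with the block, against 0.083 without it, and that of Bmp4 was 0.11, against 0.10. Members at an unadjusted limma p under 0.05 numbered 0 to 2 over the alternatives. There were 2 with the block (Msx2 and Smad7), with the mean of the probe sets of a gene and without single knockout replicate 1. With all probe sets tested, 2 probe sets of members passed it. There was 1 with trend and robust moderation, without dim genes, with a second quantile normalization and without double knockout replicate 2. In the main fit the unadjusted limma p was 0.0513 for Msx2 and 0.0600 for Smad7.

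With 3 arrays per genotype, small differences could not be detected. The intervals given do not mark the limit of detection, because they hold for single genes and calls were adjusted over all genes. That of Sostdc1 ran from -1.95 to -0.77, yet its limma adjusted p was 0.872. RMA compresses differences of dim genes such as Nog, Sostdc1 and Bmpr1b.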
